A study of Mus musculus with 3 samples.

Results

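The genes that make, salvage and break down nucleotides were read in RNA-seq libraries of 3 thymic leukaemias. All 3 arose in Mb1-CreDPB mice of the C57BL/6 strain that had fallen ill. The set was chosen by gene symbol from textbook roles and held 36 of the 24437 genes in the deposited tables. It covers deoxynucleotide synthesis (6 genes), pyrimidine synthesis (4), purine synthesis (12), folate one-carbon supply (3), salvage (4), breakdown and deoxynucleotide limitation (4) and nucleotide kinases (3). In this model Cre recombinase made from the B lineage gene mb-1 (Cd79a) deletes Spi1, which encodes PU.1. The mice also lack Spib, which encodes Spi-B, so all 3 samples come from a background with both changes. Deletion of Spi1 is expected only in cells of the lineage that made Cre, and each thymus also held other cells. Each library came from a homogenised thymus after red cell lysis, and neither age nor sex is stated for the mice in the sources used here. The libraries form 1 group, in which Thy_853 is called leukaemia 1, Thy_854 leukaemia 2 and Thy_857 leukaemia 3. The labels number each thymus but do not state that each came from a separate mouse, so every ± below is an SD between n = 3 libraries. No control samples were analysed here.

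Cells build purines and pyrimidines either from small precursors (de novo synthesis) or by recovering bases and nucleosides (salvage). Ribonucleotide reductase then turns ribonucleotides into the deoxynucleotides that DNA replication consumes, and folate carries the single carbons needed for purine rings and for thymidylate. Lymphocytes depend on this balance, since loss of adenosine deaminase or purine nucleoside phosphorylase causes immunodeficiency in humans, and several drugs against lymphoid leukaemia act on these enzymes.

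Values given in threes are FPKM, in which the fragments of a gene are divided by its length and by the size of the library, in leukaemias 1, 2 and 3, in that order. FPKM is per length, so levels of different genes may be set side by side. All 36 genes had 1 locus each and status OK in every library, and 35 had FPKM of at least 1 in all 3. FPKM summed over all genes to 430787, 415638 and 423979, and 9992, 9797 and 9706 genes reached FPKM of 1. The tables used here hold no fragment counts, so depth is known only through the intervals. The deposited 95% intervals extended by a median of 4.12%, 3.64% and 3.28% to either side of their midpoint for these genes, and cover counting and assignment of fragments only. B lineage markers were abundant, with Igll1, a surrogate light chain gene, at 3139, 2490.4 and 1955 FPKM, and 2 markers of thymic epithelium, Foxn1 and Psmb11, were listed at 0 or below 0.03 FPKM in every library. Other markers of that epithelium were low but present, with Ccl25 at 2.57, 2.32 and 1.94 FPKM and Prss16 at 1.41, 1.65 and 3.57 FPKM. In a homogenised thymus, fewer cells of a type and less RNA per cell cannot be told apart.

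The set was expressed above the typical gene and stood lowest in leukaemia 1. The median of the 36 genes was 29.5, 34.2 and 45.5 FPKM, against 14.4, 14.2 and 14.7 for the 9300 genes with FPKM of at least 1 in all 3 libraries. Together they took 0.411%, 0.590% and 0.638% of all FPKM. Leukaemia 1 had the lowest value of 30 of the 36 genes (83.3%), against 39.4% of the 10412 genes that reached FPKM of 1 in some library. Of these 30, 25 were ordered 1, 2, 3 from low to high (69.4% of the set, against 27.1% of all genes), and 5 (Tyms, Dtymk, Ada, Nme2 and Guk1) were highest in leukaemia 2. The exceptions were Dctd, Impdh1, Dck and Samhd1, lowest in leukaemia 3 and highest in leukaemia 1, and Pnp and Dnph1, lowest in leukaemia 2.

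**Figure D1:**
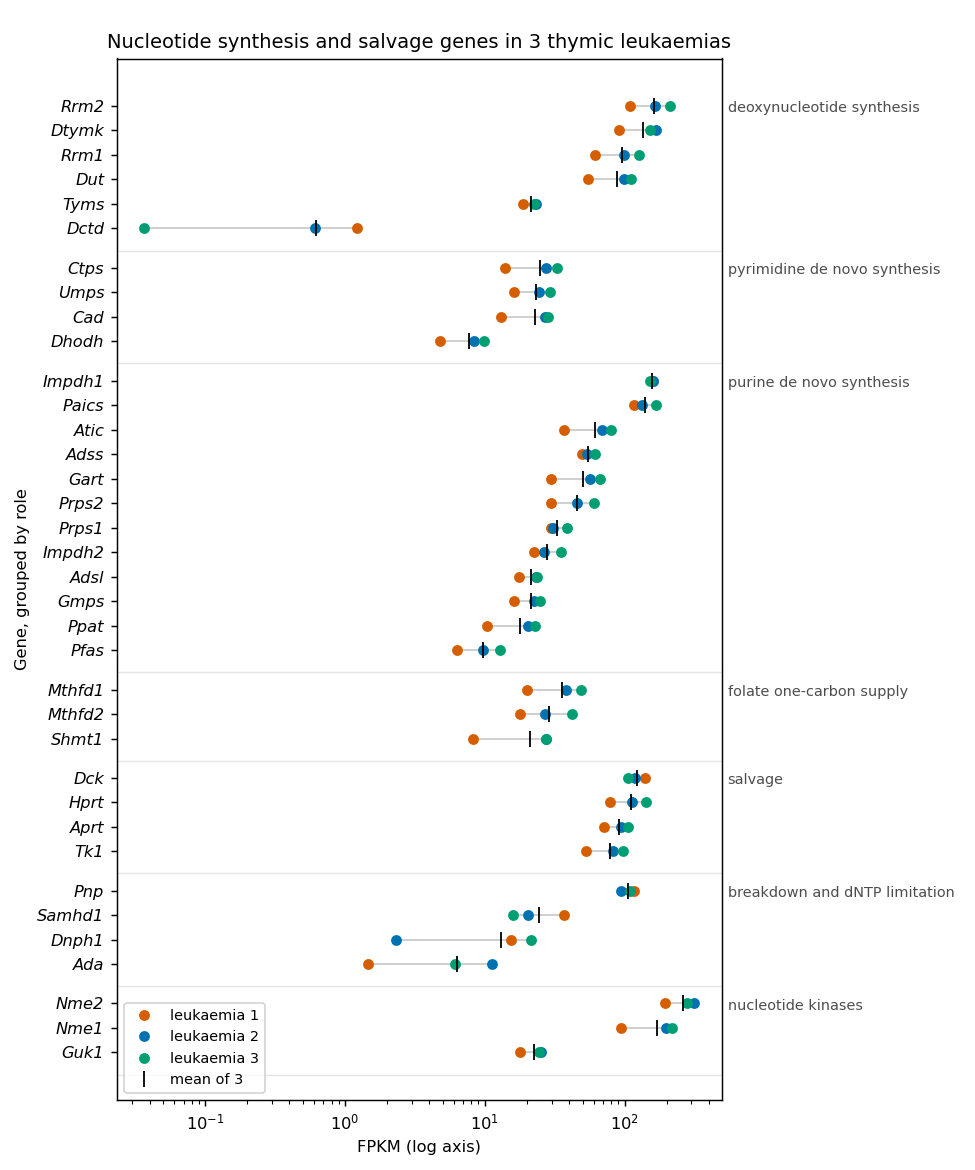
FPKM of the 36 genes on a log axis, grouped by role, with 1 point for each leukaemia, a black tick for the mean of 3 and a grey line over the range. Leukaemia 1 is the leftmost point for 30 genes, and Dctd, Samhd1, Dck, Impdh1, Pnp and Dnph1 are the exceptions.

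Leukaemia 1 was compared with each of the others by 2 fold rules. A gene was called where log2(FPKM + 1) differed by at least 1 (2-fold rule) or at least 0.585 (1.5-fold rule), FPKM was at least 1 in either library and the deposited intervals did not overlap. Each comparison sets 1 library against 1 other, so it has no replicate check and no p-value. By the 2-fold rule, 3 of 36 genes (Shmt1, Ada and Nme1) were lower in leukaemia 1 than in leukaemia 2, a share of 8.33% against 2.60% of all genes tested. Against leukaemia 3, 11 were lower (Rrm1, Cad, Ctps, Ppat, Gart, Atic, Shmt1, Mthfd1, Mthfd2, Ada and Nme1), a share of 30.6% against 3.22% of all genes. In the opposite direction, 1 gene was higher in leukaemia 1 than in leukaemia 2 (Dnph1, background 5.56%) and 2 exceeded leukaemia 3 (Dctd and Samhd1, background 6.75%), shares of 2.78% and 5.56% that lie below those of all genes. By the 1.5-fold rule, 17 genes (47.2%) were lower in leukaemia 1 than in leukaemia 2, against 8.33% of all genes, and 22 (61.1%) were lower than in leukaemia 3, against 12.0%. The 17 were Rrm1, Rrm2, Dut, Dtymk, Cad, Dhodh, Ctps, Prps2, Ppat, Gart, Atic, Shmt1, Mthfd1, Tk1, Ada, Nme1 and Nme2. The 22 were the first 16 of these, without Nme2, and Umps, Pfas, Impdh2, Gmps, Mthfd2 and Hprt. In the opposite direction the same rule called Samhd1 and Dnph1 against leukaemia 2 (2 genes, 5.56%, background 12.7%) and Dctd and Samhd1 against leukaemia 3 (2 genes, 5.56%, background 14.3%). Under both rules Dctd passed the filter only through leukaemia 1, so it could be called only as higher there.

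Fewer genes were called between leukaemias 2 and 3. Of 35 genes tested (Dctd was below the filter), 0 were higher in leukaemia 2 by the 2-fold rule (background 2.96%) and 1, Dnph1, was lower (background 1.72%). By the 1.5-fold rule, Ada alone was higher in leukaemia 2 (background 6.33%), and Mthfd2 and Dnph1 were lower (background 4.83%). The median difference over the 36 genes in log2(FPKM + 1) was -0.58 for leukaemia 1 minus 2, -0.83 for 1 minus 3 and -0.21 for 2 minus 3, where all 10412 genes had medians of 0.02, -0.002 and -0.05. Some calls near the threshold depended on scaling: with FPKM rescaled to equal upper quartiles, Rrm1, Cad and Ppat no longer met the 2-fold rule in leukaemia 1 against 3. The differences were then -0.96 for Rrm1 and -0.99 for Ppat, and that of Cad lay just short of the threshold. Rescaling either by upper quartiles or by the median ratio ended the 1.5-fold calls of Gmps in leukaemia 1 against 3 and of Mthfd2 in 2 against 3, and rescaling by upper quartiles also that of Impdh2 in 1 against 3. Dropping the interval criterion changed no call among the 36.

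**Figure D2:**
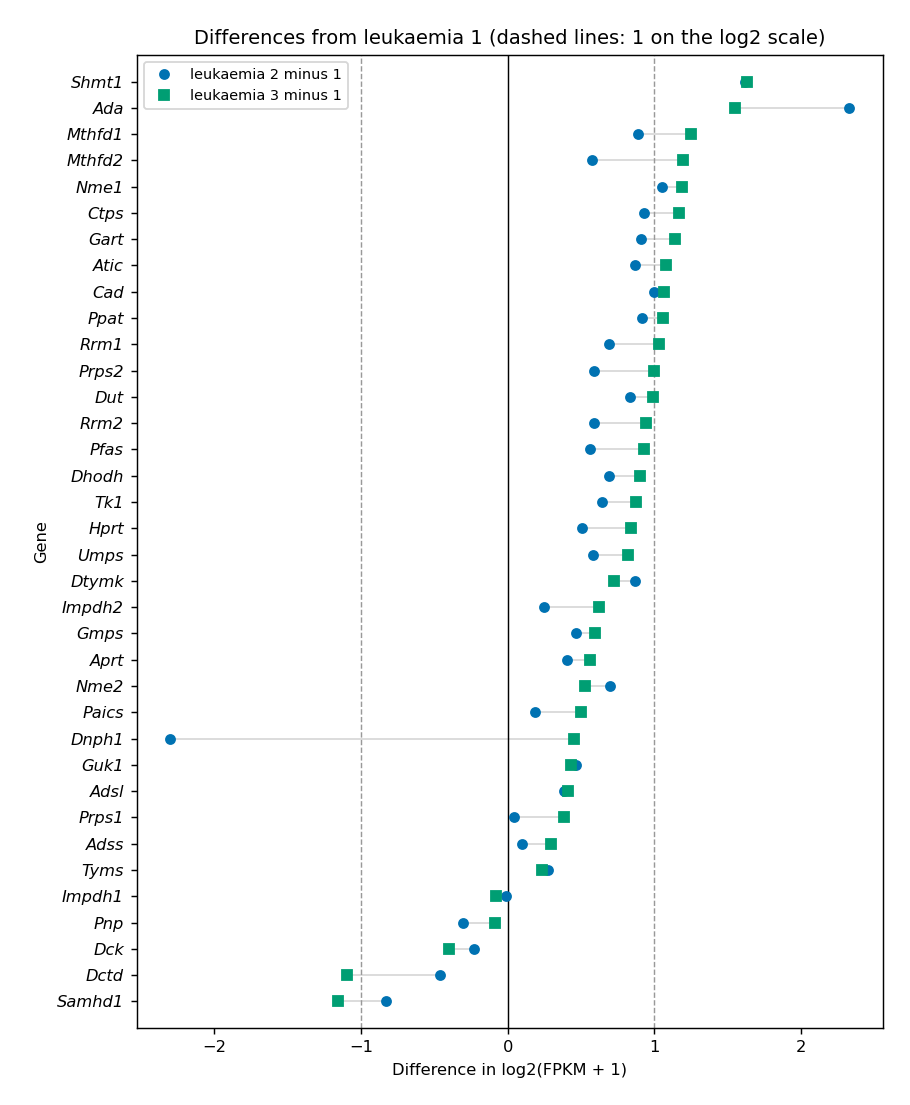
Difference in log2(FPKM + 1) from leukaemia 1 for each gene, with circles for leukaemia 2 minus 1, squares for leukaemia 3 minus 1, and dashed lines at 1 and -1, the 2-fold rule. Most points lie to the right of 0, Shmt1, Ada and Nme1 lie beyond 1 in both comparisons, and Dnph1 lies on opposite sides of 0.

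Ribonucleotide reductase, the enzyme that makes deoxynucleotides, is built from a large subunit encoded by Rrm1 (chr7:102441695-102469771, mm10) and a small subunit encoded by Rrm2 (chr12:24708254-24714146). Rrm1 stood at 60.9, 98.8 and 126 FPKM (95.1 ± 32.6) and Rrm2 at 109.9, 166 and 212 FPKM (163 ± 51.4). Both were lowest in leukaemia 1 and highest in leukaemia 3, where Rrm1 was 2.07 times and Rrm2 1.93 times its level in leukaemia 1. The ratio of Rrm1 to Rrm2 moved little, at 0.554, 0.595 and 0.592 (0.580 ± 0.0229). Dut, the dUTPase that keeps uracil out of DNA, stood at 54.8, 98.4 and 110.1 FPKM (87.8 ± 29.1), and Dtymk, the kinase that phosphorylates dTMP, at 90.6, 166 and 150.5 FPKM (136 ± 39.8). Both met the 1.5-fold rule in leukaemia 1 against each of the others, with differences for 1 minus 3 of -0.99 and -0.73. Tyms (chr5:30058200-30073625), thymidylate synthase, varied less, at 18.9, 23.1 and 22.4 FPKM (21.4 ± 2.24), and met neither rule in any pair. Dctd, the dCMP deaminase that supplies dUMP for thymidylate, was the lowest gene of the set at 1.22, 0.612 and 0.0368 FPKM. Its interval in leukaemia 3 reached down to 0, it passed the filter only through leukaemia 1, and raising the filter to FPKM of 5 removed it.

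The 5′ sequences of both reductase genes are shown because they encode partner subunits of 1 enzyme. Their near constant ratio is not particular to partners, since the ratios of Rrm2 to Pcna and of Tk1 to Rrm2 given below were similarly steady. They are RefSeq sequences of GRCm38.p6, the assembly of mm10, from 110 to 1 bases before the annotated start, 5′ to 3′ on the gene's strand, with the CCAAT box in capitals. The Rrm1 stretch (chr7:102441585-102441694, plus strand) holds 2 such boxes and the Rrm2 stretch (chr12:24708144-24708253, plus strand) holds 1. The box is common, in the promoter windows of 47.1% of the set and 44.2% of expressed genes.
Rrm1: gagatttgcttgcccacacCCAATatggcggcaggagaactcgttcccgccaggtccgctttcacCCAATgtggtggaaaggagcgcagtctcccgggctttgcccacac
Rrm2: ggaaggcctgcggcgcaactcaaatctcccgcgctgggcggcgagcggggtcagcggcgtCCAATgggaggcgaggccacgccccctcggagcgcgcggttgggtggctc

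The 4 genes of pyrimidine synthesis were all ordered 1, 2, 3 from low to high, and their median stood at 13.5, 25.7 and 28.8 FPKM (22.7 ± 8.08). Cad (chr5:31054780-31078479) encodes the protein of the first 3 steps, with carbamoyl phosphate synthetase, aspartate transcarbamylase and dihydroorotase activities, and stood at 13.0, 27.0 and 28.4 FPKM (22.8 ± 8.49). Dhodh, the mitochondrial dihydroorotate dehydrogenase, was the lowest of the 4 at 4.81, 8.36 and 9.84 FPKM (7.67 ± 2.58). Umps, which makes UMP from orotate, stood at 16.0, 24.5 and 29.1 FPKM (23.2 ± 6.62). Ctps, the CTP synthetase, was at 14.0, 27.5 and 32.6 FPKM (24.7 ± 9.63), so that leukaemias 2 and 3 had 1.97 and 2.33 times the level of leukaemia 1. By the 2-fold rule Cad and Ctps were called against leukaemia 3, and Dhodh and Umps were not. Cad against leukaemia 2 lay just short of that rule, at 2.07 times by FPKM alone, and met it with pseudocounts of 0.1 or 0.01 and after both rescalings.

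Purine synthesis starts from PRPP, which the synthetases Prps1 and Prps2 make. Prps1 stood at 29.5, 30.5 and 38.9 FPKM (33.0 ± 5.14) and Prps2 at 29.9, 45.5 and 60.6 FPKM (45.4 ± 15.3). By FPKM the pair was nearly level in leukaemia 1 and apart in the others. The Prps1 to Prps2 ratio was 0.986, 0.670 and 0.641. However, the FPKM of Prps1 lay above its own upper bound in every library. In leukaemia 1 the deposited intervals of Prps1 (25.9 to 28.6 FPKM) and Prps2 (29.3 to 31.2 FPKM) did not overlap. Ppat (chr5:76913249-76951578), the amidotransferase of the committed step, stood at 10.3, 20.4 and 22.7 FPKM (17.8 ± 6.56). Gart, which carries out 3 steps of the pathway, was at 29.5, 56.2 and 66.2 FPKM (50.6 ± 19.0), and Pfas, the amidotransferase that acts between the steps of Gart, at 6.27, 9.74 and 12.8 FPKM (9.62 ± 3.29). All 3 were lowest in leukaemia 1, and Ppat and Gart met the 2-fold rule against leukaemia 3. Paics (chr5:76951411-76967505), whose protein joins the carboxylase and the next synthetase, was far more abundant at 117, 134 and 166 FPKM (139 ± 24.9) and met neither rule. Adsl, the adenylosuccinate lyase, stood at 17.4, 23.0 and 23.4 FPKM (21.3 ± 3.37), also below the 1.5-fold rule. Atic, which closes the ring to IMP, was at 37.1, 68.4 and 79.4 FPKM (61.6 ± 22.0) and met the 2-fold rule in leukaemia 1 against 3, with a difference of -1.08.

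From IMP the pathway branches. On the AMP branch, Adss (adenylosuccinate synthetase) varied little, at 49.8, 53.4 and 61.5 FPKM (54.9 ± 5.99). On the GMP branch, the IMP dehydrogenases Impdh1 and Impdh2 differed in level and in pattern. Impdh1 was among the most abundant genes of the set and nearly constant, at 159, 158 and 151 FPKM (156 ± 4.57), a 1.06-fold range. Impdh2 stood at 22.3, 26.7 and 35.0 FPKM (28.0 ± 6.41), lowest in leukaemia 1, so the Impdh2 to Impdh1 ratio was 0.140, 0.168 and 0.232. Gmps, which makes GMP, was at 16.1, 22.6 and 24.9 FPKM (21.2 ± 4.56). Of the 12 purine genes, 11 were lowest in leukaemia 1, and the median was 29.5, 38.0 and 49.7 FPKM (39.1 ± 10.2).

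Ppat and Paics lie head to head on chromosome 5, on opposite strands, and their deposited loci overlap by 168 bases. The sources used here do not say whether strand was used in counting, so reads in the overlap cannot be assigned with certainty. The Ppat to Paics ratio was 0.0881, 0.153 and 0.136, lowest in leukaemia 1. Their RefSeq windows are shown because the 2 genes of 1 pathway start close together. They are of GRCm38.p6, from 250 bases before to 50 after the annotated start, 5′ to 3′ on each gene's strand. The 2 windows share no base, and most of the overlap of the loci lies between them. The Paics window ends before the deposited Paics locus begins. Capitals mark an E-box (CACGTG) and a CCAAT box in Paics (chr5:76951052-76951351, plus strand) and 2 E2F-type motifs (the reverse complement of TTTCCCG) in Ppat (chr5:76951529-76951828, minus strand).
Paics: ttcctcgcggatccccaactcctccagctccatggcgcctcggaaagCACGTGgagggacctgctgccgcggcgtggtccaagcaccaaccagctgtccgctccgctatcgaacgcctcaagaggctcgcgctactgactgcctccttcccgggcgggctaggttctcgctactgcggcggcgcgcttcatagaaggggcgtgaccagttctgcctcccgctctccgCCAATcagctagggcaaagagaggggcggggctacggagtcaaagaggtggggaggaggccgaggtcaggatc
Ppat: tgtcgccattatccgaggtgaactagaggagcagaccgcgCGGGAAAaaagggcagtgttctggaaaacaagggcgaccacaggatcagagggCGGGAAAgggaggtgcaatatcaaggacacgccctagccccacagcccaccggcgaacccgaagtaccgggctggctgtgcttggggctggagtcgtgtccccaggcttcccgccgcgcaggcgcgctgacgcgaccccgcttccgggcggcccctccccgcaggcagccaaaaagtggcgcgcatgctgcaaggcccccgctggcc

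By median difference, the 3 folate genes lay further below the other leukaemias in leukaemia 1 than the genes of any other role in the set. Shmt1 (chr11:60788897-60811265), the cytosolic serine hydroxymethyltransferase that loads carbons onto folate, stood at 8.16, 27.2 and 27.4 FPKM (20.9 ± 11.0), and met the 2-fold rule against both others with differences of -1.62 and -1.63. Mthfd1, the cytosolic trifunctional folate enzyme, was at 20.0, 37.9 and 49.0 FPKM (35.7 ± 14.6). Mthfd2 (chr6:83305704-83317604), the mitochondrial dehydrogenase and cyclohydrolase that is high in embryonic and proliferating cells, was at 17.7, 26.9 and 41.9 FPKM (28.9 ± 12.2). The order 1, 2, 3 held for all 3, although Shmt1 in leukaemias 2 and 3 differed by -0.01. The median difference of these 3 genes was -0.89 for leukaemia 1 minus 2 and -1.25 for 1 minus 3.

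Among the salvage genes, 3 were lowest in leukaemia 1 and Dck was highest there. Tk1, the cytosolic thymidine kinase whose level follows S phase, stood at 52.8, 83.1 and 97.9 FPKM (77.9 ± 23.0). Hprt, which salvages hypoxanthine and guanine, was at 78.8, 112 and 142 FPKM (111 ± 31.7), and Aprt, which salvages adenine, at 71.4, 94.7 and 106 FPKM (90.7 ± 17.7). Tk1 met the 1.5-fold rule against both others, Hprt against leukaemia 3 and Aprt in neither. Dck (chr5:88765013-88783277), the deoxycytidine kinase that also activates cytarabine and other nucleoside drugs, stood at 139.9, 119 and 106 FPKM (122 ± 17.3) and met neither rule. Its ratio to Rrm1 was 2.30, 1.21 and 0.840, since the 2 genes lay in opposite orders. Levels of Tk1 relative to Rrm2 stayed within a narrow range, at 0.480, 0.501 and 0.461.

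The breakdown genes showed no common order. Ada (chr2:163726571-163750239), adenosine deaminase, had the widest range of any gene lowest in leukaemia 1, at 1.45, 11.3 and 6.16 FPKM, so that leukaemias 2 and 3 had 7.79 and 4.26 times the level of leukaemia 1. It met the 2-fold rule against both and the 1.5-fold rule in leukaemia 2 against 3. Pnp, purine nucleoside phosphorylase, which acts after Ada, was abundant and even, at 116, 93.3 and 109 FPKM (106 ± 11.5). Samhd1 (chr2:157097529-157135222), the triphosphohydrolase that degrades deoxynucleotides and is known for restricting HIV in human myeloid cells, was highest in leukaemia 1 at 36.9, 20.3 and 16.0 FPKM (24.4 ± 11.0). It met the 2-fold rule in leukaemia 1 against 3 and the 1.5-fold rule against 2. The Samhd1 to Rrm1 ratio, an enzyme that removes deoxynucleotides over one that makes them, was 0.606, 0.205 and 0.127. Dnph1 (chr17:46496789-46499618), which hydrolyses hydroxymethyl-dUMP, stood at 15.4, 2.32 and 21.4 FPKM and was the only gene of the set that was lowest in leukaemia 2 and highest in leukaemia 3. Leukaemia 3 had 9.23 times the level of leukaemia 2, and its deposited interval in leukaemia 2 lay apart from both others.

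The nucleotide kinases restore the triphosphates. Nme2 (chr11:93949814-93956256) was the highest gene of the set, at 193, 313 and 278 FPKM (261 ± 61.7), above 97.8% of expressed genes. Nme1 (chr11:93958925-93968521) stood next, at 94.3, 197 and 216 FPKM (169 ± 65.5), and met the 2-fold rule in leukaemia 1 against both others. Guk1, the guanylate kinase, was at 17.9, 25.1 and 24.4 FPKM (22.5 ± 4.0) and met neither rule. The Nme1 to Nme2 ratio was 0.489, 0.629 and 0.778, lowest in leukaemia 1. Nme1 and Nme2 are neighbours on chromosome 11, joined by an annotated readthrough gene, so their separation rests on how the authors' software assigned shared fragments.

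Ordered by mean level, neighbours in the set mostly overlapped in range. The ranges over the 3 libraries overlapped for 34 of the 35 neighbouring pairs, from Nme2 and Nme1 down, and only Ada and Dctd at the bottom did not overlap. Overlap of ranges does not compare genes within a library. Within libraries some neighbours kept their order in all 3, such as Nme2 above Nme1, and others did not, such as Rrm2 and Impdh1. The spread across libraries also differed between genes: 18 of 36 varied by at least 2-fold from the lowest to the highest library, and 10 by less than 1.5-fold. The 18 include Dctd, at only 0.0368 FPKM in leukaemia 3. The same counts were not made over all expressed genes, so they do not set these 36 apart. Those with the narrowest range included Impdh1, Tyms, Adss and Pnp.

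Some genes of the set share sequence with near copies, which could divide or inflate their FPKM. Counting 50-base words of the longest coding transcript in GENCODE M21 that also occur in another gene, the share was 73.9% for Impdh2 (a processed copy, Impdh2-ps), 54.5% for Nme2, 25.2% for Pnp, 11.8% for Nme1, 10.1% for Tyms and for Prps1 and 6.48% for Rrm2. The copies Tyms-ps, Prps1l3 and Pnp2 have rows of their own in the tables, at 13.5, 17.1 and 15.7 FPKM, 23.7, 28.3 and 29.5 FPKM and 15.4, 16.5 and 19.4 FPKM. The levels of Impdh2, Nme1, Nme2, Pnp, Tyms and Prps1 are therefore uncertain to an extent that was not tested.

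In addition, deposited FPKM lay above its own upper bound for 17, 18 and 19 of the 36 genes (47.2%, 50% and 52.8%). These were 16 genes in all 3 libraries, Rrm1, Rrm2, Ctps, Prps1, Gart, Atic, Adss, Impdh2, Mthfd1, Mthfd2, Tk1, Dck, Hprt, Aprt, Pnp and Nme1, plus Adsl, Shmt1 and Dnph1 in 2 libraries. For them FPKM and its interval are on different scales, by up to 1.26, 1.28 and 1.26 times the midpoint. Using the midpoint in place of FPKM ended the call of Rrm2 in leukaemia 1 against 2 by the 1.5-fold rule, where the difference became -0.583, just short of the threshold. It also brought calls of Umps in leukaemia 1 against 2 by the 1.5-fold rule, and of Dut and Prps2 in leukaemia 1 against 3 by the 2-fold rule.

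The ratios of paired enzymes were read within each library. With 3 libraries an exact permutation test that flips signs (two-sided) cannot go below p = 0.25, the value of all 11 pairs before and after Benjamini-Hochberg adjustment over them. The first gene exceeded its partner in all 3 libraries in 6 pairs and was below it in all 3 in the other 5. Rrm2 had 4.61, 6.56 and 11.8 times the level of Rrm2b, the p53-induced small subunit used outside S phase. Tk1 had 2.81, 5.14 and 8.58 times the level of Tk2, its mitochondrial counterpart. Dck had 3.71, 3.81 and 4.19 times the level of Dguok, the mitochondrial deoxyguanosine kinase, in nearly the same ratio throughout. Ctps had 1.16, 3.75 and 3.55 times the level of Ctps2, and Adss 3.96, 12.7 and 16.0 times that of Adssl1, the form known from muscle. Mthfd2 had 70.6, 24.9 and 268 times the level of Mthfd2l, whose own levels were 0.251, 1.08 and 0.157 FPKM, so the ratio is poorly determined. Shmt1 was below Shmt2, its mitochondrial counterpart, at a ratio of 0.140, 0.304 and 0.207. The Rrm2 to Rrm2b, Tk1 to Tk2 and Adss to Adssl1 ratios were lowest in leukaemia 1 and highest in leukaemia 3.

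**Figure D3:**
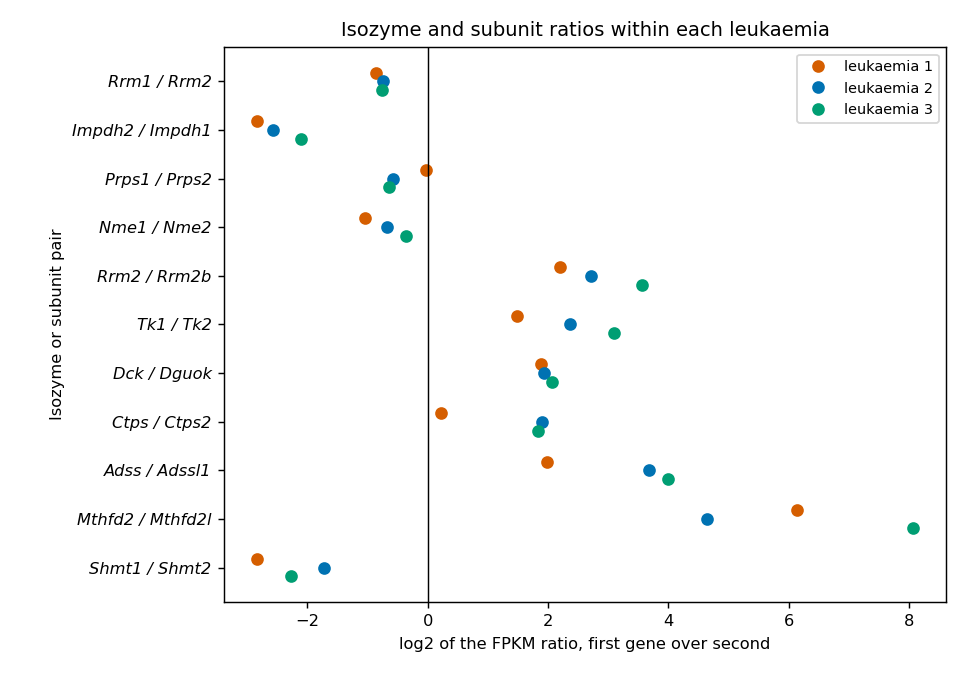
log2 of the FPKM ratio of the first gene to the second for 11 enzyme pairs, with 1 point for each leukaemia and a line at 0 where both are equal. Points to the right of 0 show the first gene higher in that leukaemia, and the Rrm1 to Rrm2 and Dck to Dguok points lie close together while those of Ctps to Ctps2 and Mthfd2 to Mthfd2l are spread.

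A larger share of the other nucleotide genes than of all genes was lowest in leukaemia 1, and their median differences were smaller than those of the 36. Of 72 other nucleotide genes, 20 stayed below FPKM of 1 in every library. Among the 52 that reached it, 27 (51.9%) were lowest in leukaemia 1, against 39.4% of all genes under the same filter. Their median differences in log2(FPKM + 1) were -0.14 for 1 minus 2, -0.23 for 1 minus 3 and -0.14 for 2 minus 3. By the 2-fold rule, 3 of 52 tested (5.77%, background 2.60%) were lower in leukaemia 1 than in leukaemia 2 and 2 (3.85%, background 5.56%) were higher. Against leukaemia 3, 5 of 51 (9.80%, background 3.22%) were lower and 3 (5.88%, background 6.75%) were higher. None of 49 met it between leukaemias 2 and 3. By the 1.5-fold rule, 10 (19.2%, background 8.33%) were lower and 8 (15.4%, background 12.7%) higher in leukaemia 1 than in 2, and 15 (29.4%, background 12.0%) were lower and 8 (15.7%, background 14.3%) higher than in 3. Between leukaemias 2 and 3, 3 (6.12%, background 4.83%) were lower in 2 and 2 (4.08%, background 6.33%) were higher. Among the 8 of each comparison, Xdh, Ggh and Slc28a2 passed the filter only through leukaemia 1 and could be called only as higher there. Mthfd2l, among the 10 and among the 2 higher in leukaemia 2, passed only through leukaemia 2 and could be called only as higher there.

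Of the 5 lower in leukaemia 1, 3 belonged to folate and serine metabolism (Fpgs, Shmt2 and Phgdh). Dctpp1, the dCTP pyrophosphatase, stood at 55.8, 118 and 131 FPKM, and Fpgs, which retains folates in cells by adding glutamates, at 14.1, 41.9 and 46.1 FPKM. Shmt2 was at 58.1, 89.4 and 132 FPKM and Phgdh, of serine synthesis, at 27.5, 43.0 and 64.2 FPKM, while Nt5c3b, a nucleotidase, stood at 18.6, 40.9 and 38.4 FPKM. All 5 were lower in leukaemia 1 than in 3, and Dctpp1, Fpgs and Nt5c3b also than in 2. Those higher in leukaemia 1 were Cmpk2, a mitochondrial kinase known as interferon-induced, at 37.5, 17.3 and 12.7 FPKM, Adssl1 at 12.6, 4.19 and 3.84 FPKM, and Xdh, the xanthine dehydrogenase that makes urate, at 2.12, 0.713 and 0.533 FPKM. By the 2-fold rule Xdh was called only against leukaemia 3, and it passed the filter only through leukaemia 1. The nucleoside transporter Slc29a1 was the highest of the 72, at 123, 122 and 128 FPKM, and Tymp, Ak5, Nme7 and Slc28a1 were listed at 0 in all libraries. In 6 of the lists of these genes, Dctpp1, Uck2, Prpsap1, Shmt2, Nt5c and Slc29a1 were the highest members, and Cda, Tymp, Ampd1, Gcat, Nt5e and Slc28a1 the lowest.

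Cell cycle genes were also lowest in leukaemia 1. All 14 genes of S phase and E2F and all 12 of G2 and M phase were lowest in leukaemia 1, and summed to 846, 1417 and 1703 FPKM and 517, 647 and 944 FPKM. Their median differences for leukaemia 1 minus 2 and 1 minus 3 were -0.75 and -1.01 for S phase and -0.22 and -0.84 for G2 and M phase. The ratio of Rrm2 to the replication clamp Pcna was almost constant, at 0.527, 0.499 and 0.495. For Gart and Pcna it was 0.141, 0.169 and 0.154, and for Nme1 and Pcna 0.452, 0.592 and 0.504. The part of cell division in the differences between leukaemias was not tested.

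Markers of other cells also differed. The 15 T cell markers summed to 412, 324 and 182 FPKM, with 12 of 15 highest in leukaemia 1 and Cd247 listed at 0 in leukaemias 2 and 3. Much of that sum came from Lat (169, 113 and 67.8 FPKM) and Lck (77.1, 165 and 75.6 FPKM). By the median gene, T cell markers were higher in leukaemia 1 by 1.68 and 1.47 in log2(FPKM + 1) against leukaemias 2 and 3, and Cd3e, a chain of the T cell receptor complex, stood at 20.1, 3.51 and 4.87 FPKM. By the 2-fold rule, 11 of 14 tested (78.6%, background 5.56% and 6.75%) were higher in leukaemia 1 in each of these comparisons. Lck and Bcl11b were lower in leukaemia 1 than in leukaemia 2. Of those called higher, Cd247 and Themis in both comparisons and Cd28 against leukaemia 2 passed the filter only through leukaemia 1. Those genes could be called only as higher there. The 13 myeloid markers summed to 428, 341 and 127 FPKM, with 10 of 13 highest in leukaemia 1. S100a8 (117, 92.1 and 13.8 FPKM) and S100a9 (96.6, 68.3 and 11.7 FPKM) made up much of it in leukaemias 1 and 2. By the 2-fold rule, 0 of 13 were called between leukaemias 1 and 2. Against leukaemia 3, 5 of 11 tested (45.5%, background 6.75%) were higher in leukaemia 1. The 9 B lineage markers summed to 8623, 7479.9 and 5654 FPKM, with 5 of 9 highest in leukaemia 1. Of all 10412 genes that reached FPKM of 1, 4242 were highest there. The 8 erythroid markers summed to 144, 212 and 26.8 FPKM and the 11 of thymic epithelium and stroma to 8.66, 8.05 and 7.90 FPKM. Their part in the results above was not tested.

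**Figure D4:**
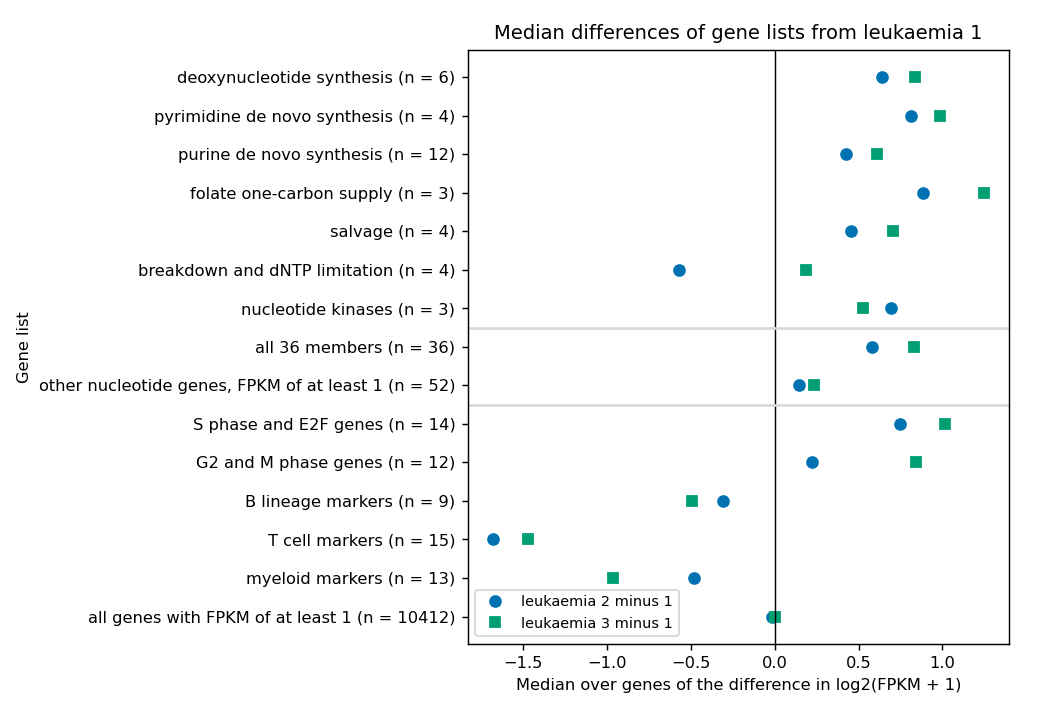
Median over genes of the difference in log2(FPKM + 1) from leukaemia 1, with circles for leukaemia 2 minus 1 and squares for leukaemia 3 minus 1, for each role, for all 36 genes and for other lists. Every role but breakdown lies right of 0 in both comparisons, as do the cell cycle lists, while B lineage, T cell and myeloid markers lie left of 0 and the 52 other nucleotide genes that reached FPKM of 1 lie slightly right of 0.

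Promoter sequences were searched for 4 kinds of motif in the RefSeq windows of 34 of the 36 genes (6 have more than 1 window, and Dhodh and Pfas have none in the table). Both strands were read, and a gene counted when any of its windows held a motif. No motif searched contains another. The E-box CACGTG, which reads the same on both strands, was in 7 of 34 (20.6%), against 8.09% of all 27025 genes with a window and 12.5% of expressed genes. CCAAT was in 16 (47.1%), against 41.1% and 44.2%. E2F-type letters (TTTGGCG, or its variant TTTCGCG, or its variant TTTCCCG) were in 3 (Prps2, Ppat and Ada, 8.82%), against 6.38% and 12.5%. The ETS motif AGGAAGT, read by factors such as PU.1, was in 4 (Prps1, Prps2, Adsl and Nme1, 11.8%), against 10.7% and 10.9%. These shares are descriptions of letters in a window and not of binding.

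The E-box genes were Tyms, Dtymk, Paics, Atic, Impdh2, Dnph1 and Nme1. The E-box of Paics is in its window above, and the other 6 are shown here because they hold the same motif. With Paics, they belong to deoxynucleotide synthesis, purine synthesis, breakdown and nucleotide kinases. No pyrimidine, folate or salvage gene with a window held it. The motif is in capitals in 55 or 56 bases of RefSeq sequence, 5′ to 3′ on the gene's strand. Coordinates are chr5:30073656-30073711, minus strand for Tyms, chr1:93802052-93802107, minus strand for Dtymk, chr1:71557124-71557178, plus strand for Atic, chr9:108560301-108560356, plus strand for Impdh2, chr17:46496747-46496801, plus strand for Dnph1 and chr11:93968261-93968315, minus strand for Nme1, which has a second E-box in its other window.
Tyms: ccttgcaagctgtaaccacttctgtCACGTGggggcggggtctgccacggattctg
Dtymk: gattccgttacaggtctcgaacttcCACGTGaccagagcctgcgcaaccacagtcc
Atic: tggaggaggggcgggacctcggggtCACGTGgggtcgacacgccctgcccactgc
Impdh2: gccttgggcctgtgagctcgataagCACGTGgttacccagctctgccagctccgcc
Dnph1: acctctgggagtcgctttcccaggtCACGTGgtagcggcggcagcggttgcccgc
Nme1: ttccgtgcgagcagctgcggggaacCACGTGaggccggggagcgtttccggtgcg
Of these 7 genes, Nme1 was called lower in leukaemia 1 against both others by the 2-fold rule, and Atic against leukaemia 3 only. Against leukaemia 3 that rule called 30.6% of the 36 genes lower and 3.22% of all genes. The shares against leukaemia 2 were 8.33% and 2.60%. Dnph1 met the same rule in leukaemia 2, where its level lay below both others. Dtymk met only the 1.5-fold rule, in leukaemia 1 against both others, and Impdh2 met it against leukaemia 3 only. Tyms and Paics met neither rule in any pair. Calls of genes with and without an E-box were not compared.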

How the data were processed

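The authors deposited 1 table for each leukaemia, which per the file headers lists the FPKM of every gene, the bounds of its 95% interval and a status. Trim Galore 0.2.8.1, TopHat2 2.0.9, Cufflinks and Cuffdiff 2.1.1 were used with build mm10, per the submitters' processing notes. No source used here gives their order or settings. FPKM is not a count, and count tests were left out.

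Of the 25020 rows of each table, the 26 rows whose symbol had become a date were left out, and FPKM and bounds were summed over the loci of a symbol, leaving 24437 genes. Loci are printed with 1 added to the deposited start, because 25 of 36 starts then equalled RefSeq starts (1 did before). Differences are on the log2(FPKM + 1) scale, which understates those of low genes. The 36 genes, the lists and the rules were chosen with earlier results of these data known. All 36 genes are named, and of other nucleotide genes those called by the 2-fold rule, those paired with a member and the highest and lowest of each list; some genes that this rule names are left out of the text. Alternatives were other pseudocounts, filters, the interval midpoint, rescaled FPKM, rows of status OK and leaving out libraries. The step that makes calls was tested on simulated data with counting error only, without differences between animals and with FPKM inside its interval. In the deposited data FPKM often lay above its interval, so that test does not show how reliable the calls are here. Protein sequences were not analysed here. Python 3.11.15, numpy 2.4.6, pandas 2.3.3, scipy 1.17.1 and matplotlib 3.10.9 were used.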

Additional observations from a re-analysis of the deposited data

How the results depend on the processing

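No result of the 36 genes reversed its direction under any alternative run. Counts of genes apart by the 2-fold rule ran from 4 to 5 for leukaemias 1 and 2, from 10 to 17 for 1 and 3, and stayed at 1 for 2 and 3; by the 1.5-fold rule they ran from 19 to 23, from 22 to 24 and from 2 to 4. The median difference of all expressed genes changed sign in each comparison under 1 or both rescalings, but moved by under 0.1 on the log2 scale. The count lowest in leukaemia 1 was 30 under both rescalings and the interval midpoint, and 28 where its interval also had to lie below both others, alternatives chosen after seeing the data. With means over members in place of medians, purine synthesis stood at 53.2 FPKM and breakdown at 37.4 FPKM, where the medians were 39.1 and 20.2, by construction of a mean over genes of unequal level. The level of Aprt from the interval midpoint was 71.5 FPKM, below 90.7 as deposited. No paired comparison between groups of samples was possible because the libraries form 1 group. Only paired enzymes were compared within each library. Depth per library is not known, and 1 library on each side of a comparison leaves differences between animals unmeasured.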

Other observations

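Regulators known to act on nucleotide genes were read in the same libraries. Myc, whose product binds E-boxes, stood at 35.8, 67.0 and 63.9 FPKM, lowest in leukaemia 1, and Mycn was listed at 0 or below 0.01 FPKM. E2f1 was at 8.41, 16.4 and 17.7 FPKM, E2f2 at 56.0, 64.3 and 68.2 FPKM and E2f3 at 3.19, 4.91 and 6.17 FPKM, all ordered 1, 2, 3 from low to high. Trp53 stood at 120.3, 135 and 149 FPKM. Atf4, an activator of serine and folate genes, was at 136, 120.3 and 168 FPKM, lowest in leukaemia 2. No relation between these levels and those of the nucleotide genes was tested.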
